A study of Mus musculus with 24 samples.

Results

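Neurons that fire switch on a set of activity-induced genes, and the CpG methylation of 10 such genes was examined here in the dentate gyrus, the part of the hippocampus that is built around granule neurons. The genes were Bdnf, Arc, Fos, Egr1, Npas4, Nr4a1, Junb, Homer1, Fgf1 and Gadd45b. Their CpGs were those inside the GENCODE M21 gene span on GRCm38 or within 2 kb of it, covered in no fewer than 3 mice per group. These were 621 of 694379 CpGs, counted on each strand separately. Of them 451 were promoter CpGs, within 1 kb of a transcript start of the gene, and 170 lay in the remainder, called the body here although 48 of the 170 were upstream of the gene and 15 downstream. RRBS was used, in which DNA is cut at CCGG sites and treated with bisulfite, so that the level of a CpG is the percent of its reads that remained unconverted. All mice were female C57BL/6JRj, 8 in each of 3 groups, with no genetic modification in the labels. Young STD mice were 3 months old and aged STD mice 17 months old, both from standard housing (STD). Aged ENR mice were also 17 months old and had lived in environmental enrichment (ENR), an enclosure with tunnels and toys, for the last 3 months. Since ENR mice were housed together, ENR and a shared enclosure cannot be told apart.

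Calcium that enters an active neuron leads to phosphorylation of factors such as CREB and the partners of SRF, which bind CRE and CArG elements in the promoters of these genes. Among the first products are transcription factors (Fos, Junb, Egr1, Npas4, Nr4a1). Others act at the synapse (Arc, Homer1), are secreted (Bdnf, Fgf1) or belong to the GADD45 family that has been linked to active DNA demethylation (Gadd45b). The dissected tissue held neurons, glia and vessels together, so a change in its cell makeup and a change within a cell type cannot be told apart.

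Which part of each promoter RRBS reached is shown first, because the values speak only for that part. All 557 CpGs of the 8 genes checked lay within 100 bp of a CCGG, with a median distance of 26 bp. RefSeq promoter sequences on GRCm38.p6, running from 250 bases before a transcript start to 50 after it, were matched for 14 promoters of 7 genes. No entry was matched for Arc, Egr1 and Fgf1. Measured CpGs lay in 5 of the 14, and 3 of these are printed, with 250 upstream bases along the gene and the measured CpGs in capitals. They are those of Gadd45b, the most fully covered, of Homer1, with several CRE cores, and of Bdnf, which holds a CpG described further on.
Gadd45b, chr10:80929841-80930090, plus strand: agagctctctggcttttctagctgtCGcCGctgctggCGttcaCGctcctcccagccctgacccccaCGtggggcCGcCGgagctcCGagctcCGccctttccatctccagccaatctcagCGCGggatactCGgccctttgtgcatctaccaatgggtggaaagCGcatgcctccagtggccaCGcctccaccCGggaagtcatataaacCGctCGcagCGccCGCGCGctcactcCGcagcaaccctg
Homer1, chr13:93303507-93303756, plus strand: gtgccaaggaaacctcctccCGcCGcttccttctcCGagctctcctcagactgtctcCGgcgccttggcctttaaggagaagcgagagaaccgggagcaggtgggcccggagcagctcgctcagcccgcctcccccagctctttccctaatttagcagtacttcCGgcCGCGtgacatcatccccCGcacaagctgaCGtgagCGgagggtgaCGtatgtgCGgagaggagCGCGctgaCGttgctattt
Bdnf, chr2:109694159-109694408, plus strand: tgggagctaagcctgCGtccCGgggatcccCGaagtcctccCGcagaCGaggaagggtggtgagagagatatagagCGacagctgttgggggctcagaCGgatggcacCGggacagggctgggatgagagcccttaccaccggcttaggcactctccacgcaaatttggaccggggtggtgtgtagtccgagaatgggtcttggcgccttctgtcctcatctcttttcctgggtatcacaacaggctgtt

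In the full windows of 300 bases, 24 of 24 CpGs were measured on at least 1 strand for Gadd45b, 19 of 26 for Homer1 and 8 of 13 for Bdnf. Their mean levels were 1.10, 1.10 and 1.37%. The other 2 were somewhat higher, 3.04% for the Bdnf promoter at chr2:109692777-109693026 (9 of 10 CpGs) and 3.35% for Junb (13 of 21). The CRE core, TGACG on either strand, occurred 3 times in the Homer1 window, and its CpG was measured each time and had a mean of 0%. The CRE core was in 6 of the 14 promoters and in 20.8% of all 32851 RefSeq promoters. The full CRE, TGACGTCA, which holds the CRE core on both strands, was in 0 of the 14 and in 1.79% of all. The CArG box was in 0 of the 14 and in 1.63% of all. Only the windows of 300 bases were searched, so sites further out, and any of Arc, Egr1 and Fgf1, were not covered. Of the EGR motifs, GCGGGGGCG was in 1 of the 14, for Nr4a1, and in 2.91% of all, and GCGTGGGCG was in 0 and in 0.612%. The E-box CACGTG was in the Gadd45b promoter and in 7.15% of all, and its measured CpG had a mean of 0.0842%. Both strands were searched for each motif, and a match of letters is no measurement of binding.

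The CRE core of the Junb promoter, −106 bp from its start, also had a measured CpG, on the minus strand, which was at 0% in every mouse with a value (3 young STD, 3 aged STD, 4 aged ENR). In the other 4 promoters with the core it was out of reach. The upstream bases of Npas4, Fos and another Bdnf promoter are printed with TGACG and CGTCA in capitals, and none of their CpGs was measured.
Npas4, chr19:4989972-4990221, minus strand: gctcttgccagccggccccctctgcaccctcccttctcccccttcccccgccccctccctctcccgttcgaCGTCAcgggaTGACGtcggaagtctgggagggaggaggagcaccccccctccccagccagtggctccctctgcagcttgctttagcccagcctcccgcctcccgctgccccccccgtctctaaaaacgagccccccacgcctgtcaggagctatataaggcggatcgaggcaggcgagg
Fos, chr12:85473640-85473889, plus strand: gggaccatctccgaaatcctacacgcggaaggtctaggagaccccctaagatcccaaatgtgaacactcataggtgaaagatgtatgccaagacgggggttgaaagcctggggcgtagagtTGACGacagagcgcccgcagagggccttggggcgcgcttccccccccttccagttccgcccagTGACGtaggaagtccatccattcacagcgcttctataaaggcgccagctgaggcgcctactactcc
Bdnf, chr2:109692186-109692435, plus strand: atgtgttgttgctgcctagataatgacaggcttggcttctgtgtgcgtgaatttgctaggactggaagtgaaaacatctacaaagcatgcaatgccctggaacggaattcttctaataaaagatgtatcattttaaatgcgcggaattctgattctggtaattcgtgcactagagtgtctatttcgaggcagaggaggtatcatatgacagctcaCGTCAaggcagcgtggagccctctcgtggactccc

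These windows of 300 bases held 21, 20 and 12 CpGs. The Nr4a1 promoter at chr15:101266596-101266845, with 4 CRE cores, had 35 CpGs in its window and none was measured either.

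The measured promoter CpGs of the 10 genes were nearly free of methylation in young and aged mice. Of 6597 single values, 91.8% were exactly 0 and 1.08% exactly 100, and the mean was 2.99%. Over the promoters of all protein-coding genes the mean was 7.78%. A mean between 20 and 80% was found at 4 promoter CpGs of the 10 genes (0.887%) and at 5.67% of the promoter CpGs of all genes. The 4 CpGs were 2 coding CpGs of Npas4 and 2 intronic CpGs of Fgf1. The plot of level against distance shows these CpGs within 250 bp downstream of a start, a bin whose mean was 6.56% over 108 CpGs. In the other 5 bins the mean was between 1.64 and 2.49%.

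**Figure D1:**
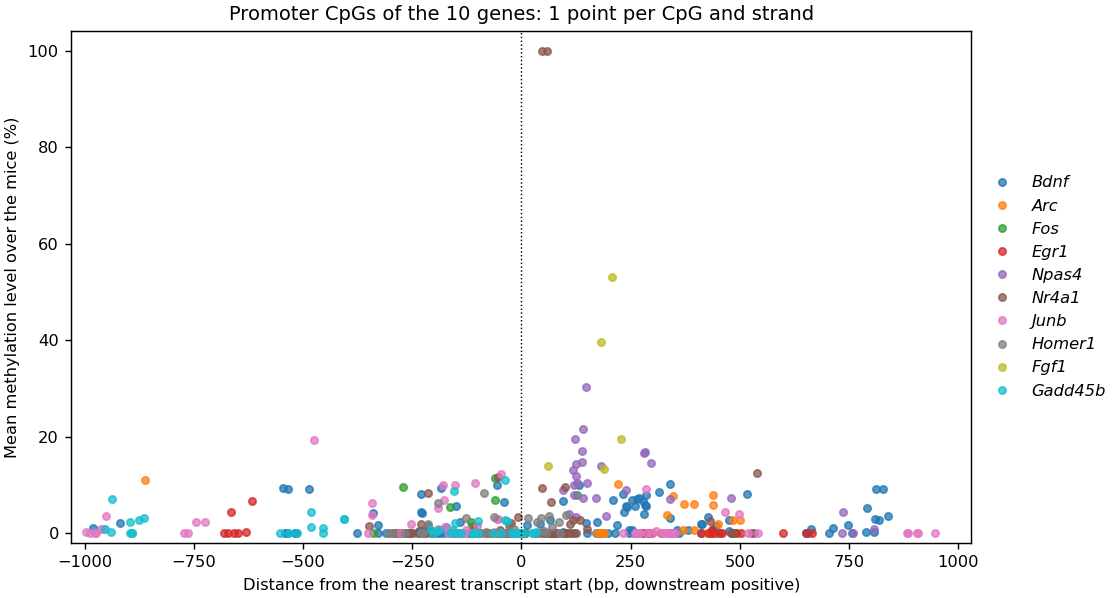
Mean methylation level over all mice with a value (%) of each promoter CpG against its distance from the nearest transcript start (bp), by gene. Nearly all points lie close to 0%, and those above 20% are 2 CpGs each of Npas4, Fgf1 and Nr4a1.

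Outside the promoters the genes differed widely. The mean over body CpGs was 71.8% for Nr4a1 (33 CpGs), 55.8% for Fgf1 (31) and 52.8% for Homer1 (4). It was 8.39% for Bdnf (19), 7.38% for Fos (26), 3.60% for Gadd45b (35) and 0.952% for Junb (22). Arc, Egr1 and Npas4 had no measured CpG outside their promoters. The first 3 genes stood at percentiles 54.3, 39.7 and 37.5 of the bodies of all genes, and the other 4 between percentiles 0.953 and 9.86.

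**Figure D2:**
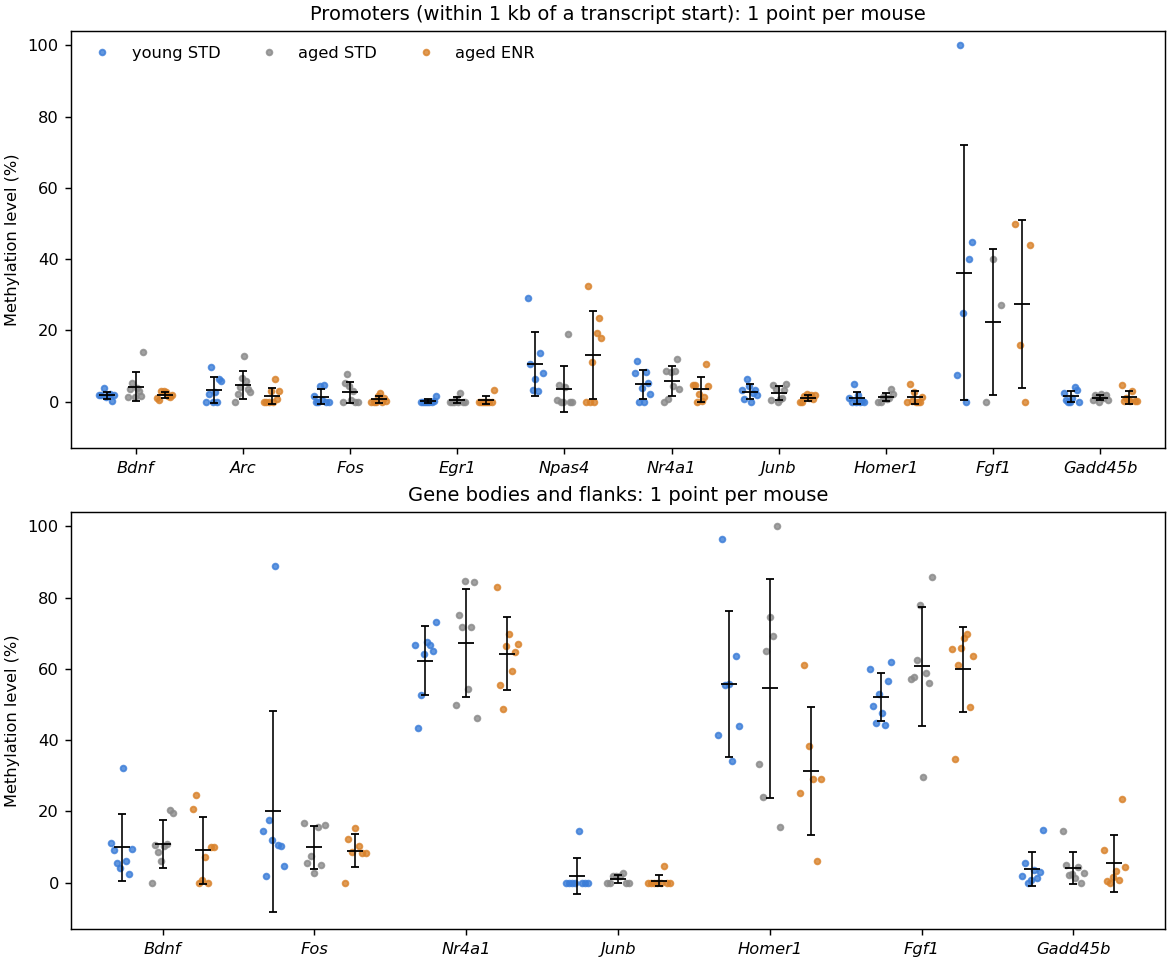
Methylation level (%) of each promoter and body in single mice, as the mean over the CpGs with a value in that mouse, with the mean and SD of each group. The promoters of all genes except Npas4 and Fgf1 were at or below 13.9% in every mouse, and the bodies of Nr4a1, Homer1 and Fgf1 were high with a wide spread.

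The comparison of aged with young STD mice asks what changes with age, and that of aged ENR with aged STD mice what enrichment changes late in life. No promoter or body of the 10 genes was called in either, or between aged ENR and young STD mice. To compare mice with different covered CpGs, each mouse was given its mean deviation from the CpG means, and limma was run over all 24431 promoters and bodies. For aging 0 of the 17 promoters and bodies were called, against 0.00409% of all, and the smallest adjusted p was 0.911 (limma, Benjamini-Hochberg). For ENR 0 of 17 were called, against 0.00819% of all, with a smallest adjusted p of 0.971 in limma. For aged ENR against young STD 0 of 17 were called, against 0.00819% of all, with a smallest adjusted p of 0.934 in limma. An unadjusted limma p under 0.05 was found for 0 of the 17 in each comparison, and for 5.23, 4.45 and 5.03% of all promoters and bodies. The exact permutation test over mice, two-sided and unadjusted, gave 0 of 17 under 0.05 as well. The median difference over the 17 was 0.236, −0.581 and −0.304 points, and over all promoters and bodies −0.112, −0.207 and −0.323 points. Aging and ENR differences share the aged STD mice and are therefore only set side by side.

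For the 8 promoters with a mean under 5%, the 95% intervals from limma were narrow. They lay within −2.23 to 5.20 points for aging, −6.56 to 1.95 for ENR and −4.81 to 2.72 for aged ENR against young STD. The Fgf1 promoter, with 5 CpGs and values in 6, 3 and 4 mice, had an interval for aging from −56.6 to 32.5 points, so that a difference of that size was not detectable.

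**Figure D3:**
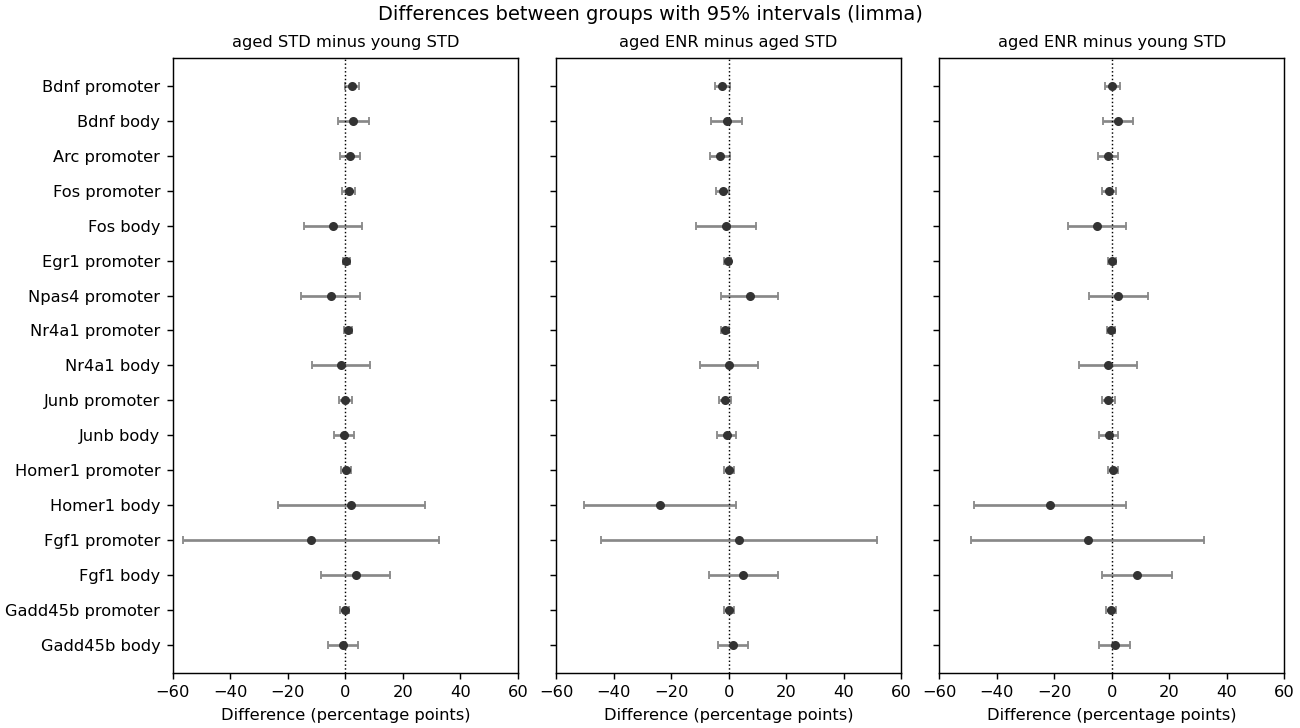
Difference in percentage points for each promoter and body of the 10 genes with its 95% interval from limma, for aging, ENR and aged ENR against young STD. Every interval includes 0, and for ENR the Homer1 body reached the lowest value, −23.7 points.

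Fos (chr12:85473890-85477273) forms the AP-1 factor with Jun proteins. In its promoter, aged STD mice were at 2.61 ± 2.96% (0 to 7.69%, median 1.72%) and aged ENR mice at 0.648 ± 0.901% (0 to 2.29%, median 0.142%), with young STD mice at 1.39 ± 2.02% (0 to 4.76%, median 0.277%). The groups overlapped, and the ENR difference was −2.06 ± 1.13 points (SE, adjusted p = 0.971, limma), and −1.30 points without aged STD mouse 3. Of the 26 body CpGs of Fos, 23 lay upstream of the gene, at −1750 to −1530 bp, and had means of at most 12.5%. The other 3 were coding CpGs in the last exon, with group means over the stretch of 49.7, 54.7 and 50.7%. The first of them is printed with its surroundings on the plus strand and the CpG in capitals, because it differed by over 25 points between aged ENR and young STD mice.
Fos, chr12:85476186-85476215: gatgtggacctgtcCGgttccttctatgca

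The Fos CpG at 85476200 had a value in 7 mice of each group. Young STD mice ran from 7.27 to 100% with a median of 35, whereas both aged groups covered 0 to 100%, with a median of 55.8 for STD and 100 for ENR. Aged ENR minus young STD was 25.9 ± 20.3 points (SE, exact permutation p = 0.260). The groups overlapped over most of the scale, and this CpG does not stand for the direction of the stretch of 3 CpGs, whose group means are given above.

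Junb (chr8:84974484-84978718), another AP-1 subunit, had promoter levels of 2.80 ± 2.02, 2.37 ± 2.003 and 1.13 ± 0.852% in the 3 groups, youngest first and ENR last. Aged ENR minus young STD was −1.22 ± 1.06 points (SE, adjusted p = 0.936, limma), and −0.641 points without young STD mouse 3. It turned to 0.00175 points with only CpGs inside the gene span. Its highest promoter CpG, at 84979192 or −474 bp and named after its values had been seen, was at 20.8, 68.4, 100 and 100% in 4 young STD mice and at 0% in the other 4. It was at 0% in all 3 aged STD mice with a value and between 0 and 47.6% in 7 aged ENR mice. Egr1 (chr18:34859823-34864984), a zinc finger factor, had the lowest promoter level of the 10 genes, 0.216 ± 0.556, 0.415 ± 0.897 and 0.417 ± 1.18%, with a median of 0% in every group.

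Npas4 (chr19:4984355-4990316), a factor largely restricted to neurons that regulates inhibitory synapses, had more methylation. Its promoter was at 10.6 ± 8.96% (3.05 to 29.0%, median 8.17%) in 7 young STD mice, 3.52 ± 6.56% (0 to 19.0%, median 0.201%) in 8 aged STD mice and 13.02 ± 12.3% (0 to 32.5%, median 14.5%) in 8 aged ENR mice. Aged STD mice had the lowest median, yet all groups overlapped. The difference was −5.09 ± 4.92 points for aging (SE, adjusted p = 0.919, limma), which was −2.03 points without young STD mouse 1, and 7.405 ± 4.76 points for ENR (adjusted p = 0.971, limma). The methylated CpGs lay 492 to 945 bp downstream of the outermost start, in coding and intronic sequence, where 27 CpGs had means from 0 to 30.3%. The primers of a targeted bisulfite assay of the study match chr19:4989686-4990271, a stretch of 586 bp with 41 CpGs. The 20 CpG rows of the table within it all lay at chr19:4989710-4989824, 80 to 194 bp downstream of the nearest start. The study ran that assay in its first experiment, on other, non-aged mice, and reported lower methylation with ENR at several CpGs. The values here cover another age and only part of the stretch. Over these 20 rows the level was 12.4 ± 11.1% for young STD (5 mice), 6.01 ± 12.1% for aged STD (5 mice) and 16.1 ± 13.7% for aged ENR (6 mice). Single mice were at 3.13, 4.50, 7.49, 17.2 and 29.6% for young STD, at 0, 0, 0.968, 1.40 and 27.7% for aged STD and at 0, 0, 16.0, 20.3, 28.8 and 31.7% for aged ENR. Every group had mice below 5% and above 25%. Without aged STD mouse 6 the aged STD mean was 0.591%, and without young STD mouse 1 the young STD mean was 8.07%.

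Nr4a1 (chr15:101254269-101274795), an orphan nuclear receptor, alternated between low and high stretches. At the outermost start, 46 CpGs had group means of 1.03, 1.41 and 0.637%, and 8 CpGs just past the next start, 12630 to 12677 bp downstream, had 0, 3.12 and 2.22%. Between the starts, 4 intronic CpGs at 9476 to 9658 bp were at 90.7, 86.4 and 87.4%, whereas 4 others at 7127 to 7293 bp were at 15.2, 24.8 and 12.9%. Another low stretch, 3 CpGs at 13617 to 13660 bp, was at 14.2, 16.4 and 7.66%. Further on, 18 coding CpGs at 15854 to 16160 bp were at 82.7, 85.0 and 92.6%. At an internal start inside a coding exon, 2 CpGs were at 98.4% or more in all 14 mice with a value, and they are the only promoter CpGs of Nr4a1 with a mean above 20%. The promoter was at 4.86 ± 4.14, 5.72 ± 4.24 and 3.50 ± 3.48%. Its difference was 1.00 ± 0.712 points for aging (SE, adjusted p = 0.911, limma), which turned to −1.34 points with only CpGs of at least 5 mice per group, and −1.31 ± 0.712 points for ENR (adjusted p = 0.971, limma). The body was at 62.4 ± 9.604, 67.3 ± 15.2 and 64.3 ± 10.2%, with differences of −1.52 ± 4.87 points for aging and 0.149 ± 4.87 points for ENR. These differences, taken CpG by CpG, have the opposite sign to those of the plain levels, which also depend on which CpGs a mouse covered. Without aged STD mouse 1 they turned to 1.63 points for aging and −3.17 points for ENR, so no direction is read from them.

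**Figure D4:**
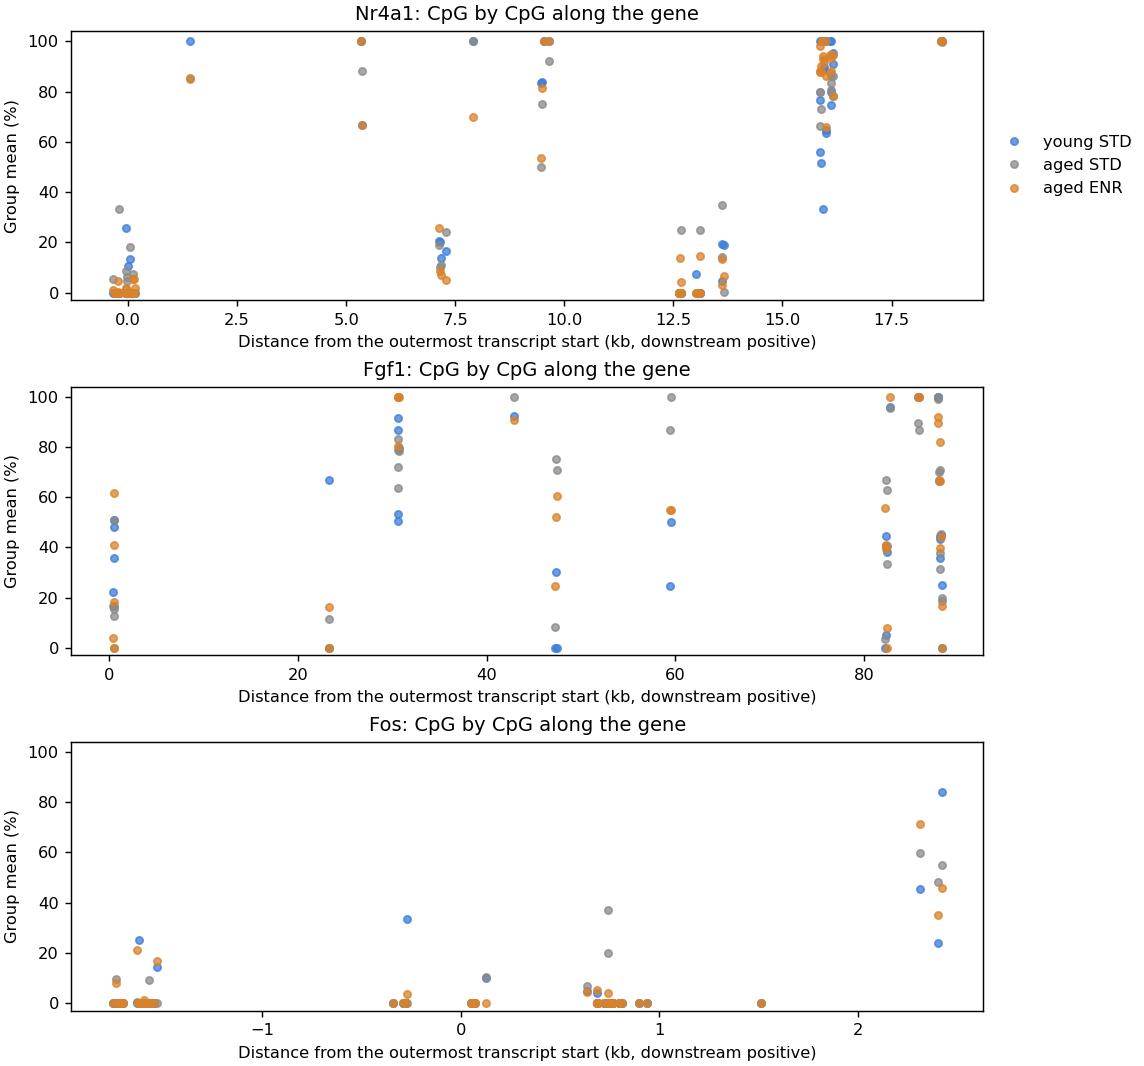
Group mean level (%) of each CpG against its distance from the outermost transcript start (kb) for Nr4a1, Fgf1 and Fos, by group. Nr4a1 was low at its first starts and near 7 and 13.6 kb and high at its other stretches, Fgf1 was mixed, and Fos was low except at its last 3 CpGs.

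Arc (chr15:74669083-74672570) encodes a capsid-like protein that promotes removal of AMPA receptors from synapses. Of its 20 CpGs, 19 lay 175 to 503 bp downstream of the start. The promoter was at 3.31 ± 3.56% (0 to 9.62%, median 2.48%) for young STD, 4.77 ± 3.91% (0 to 12.9%, median 3.82%) for aged STD and 1.61 ± 2.30% (0 to 6.33%, median 0.330%) for aged ENR mice. Aged ENR mice had the lowest median, and the groups overlapped. The ENR difference was −3.10 ± 1.67 points (SE, adjusted p = 0.971, limma), with an exact permutation p of 0.0780, and −1.73 points without aged STD mouse 5.

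Homer1 (chr13:93299635-93405129), a scaffold that ties glutamate receptors to the postsynaptic density, had a promoter at 0.990 ± 1.71, 1.22 ± 1.14 and 1.16 ± 1.85%. Its body rested on 4 CpGs and was at 55.8 ± 20.5% (34.1 to 96.4%, median 55.5%) in 7 young STD mice, 54.5 ± 30.8% (15.7 to 100%, median 65.0%) in 7 aged STD mice and 31.4 ± 17.9% (6.19 to 61.0%, median 29.0%) in 6 aged ENR mice. Aged ENR mice had the lowest median, and the ranges overlapped. The ENR difference was −23.7 ± 12.6 points (SE, adjusted p = 0.971, limma), with an exact permutation p of 0.113. Aged ENR minus young STD was −21.6 ± 12.6 points (SE, adjusted p = 0.934, limma), with an exact permutation p of 0.0600. Of the 4 CpGs, 2 differed by over 25 points in a comparison. The intronic Homer1 CpG at 93399561, picked after its values had been seen, was at 0, 0, 50, 86.2, 100 and 100% in 6 young STD mice, at 100% in 4 aged STD mice and at 2.78, 52.3 and 100% in 3 aged ENR mice, and its differences were 43.97 points for aging and −48.3 points for ENR. Leaving out an aged ENR mouse moved the latter to between −72.5 and −23.9 points. The other, with more mice, lies in an intron 6464 bp from the nearest start and is printed in capitals on the plus strand.
Homer1, chr13:93314484-93314513: tatgaagtgatagCGcatgtgtggaatctt

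At this Homer1 CpG, 93314498, the mean was 54.8 ± 39.3% for young STD (8 mice), 50.5 ± 50.02% for aged STD (7 mice) and 28.3 ± 34.98% for aged ENR (7 mice). Every group had mice at 0% and at 100%. Aged ENR minus young STD was −26.5 ± 21.4 points (SE, exact permutation p = 0.199).

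Bdnf (chr2:109674700-109727007), the neurotrophin that activates TrkB, is transcribed from several promoters, and it had the most CpGs, 123 in promoters and 19 in the body. The promoter level was 1.83 ± 1.00% (0.123 to 3.76%, median 1.87%) for young STD, 4.22 ± 4.13% (1.36 to 13.9%, median 3.31%) for aged STD and 1.88 ± 0.955% (0.532 to 3.11%, median 1.71%) for aged ENR mice. The groups overlapped, and aged STD mouse 8 stood at 13.9% with the next mouse at 5.23%. The difference was 2.32 ± 1.23 points for aging (SE, adjusted p = 0.911, limma), with an exact permutation p of 0.0660, and 0.892 points without that mouse. For ENR it was −2.15 ± 1.23 points (SE, adjusted p = 0.971, limma), and −0.805 points without the same mouse. The Bdnf body was at 9.95 ± 9.43, 10.8 ± 6.69 and 9.14 ± 9.39%, with a difference for aging of 2.79 ± 2.58 points (SE, adjusted p = 0.919, limma) and of 1.48 points without aged STD mouse 7. Among the 8 of 9 transcript starts with measured CpGs nearest to them, the mean level ran from 1.30 to 4.93%. In aged STD mouse 8, 6 plus-strand CpGs at chr2:109676136-109676181, around an untranslated exon, were each at 100%. The plus-strand CpG just before them, at 109676130, was at 0% in that mouse. The same 6 CpGs were at 5.27% in aged STD mouse 5, at 0% in 3 other aged STD mice, at most at 2.96% in young STD mice and at most at 4.09% in aged ENR mice. Most of the stretch is printed with its CpGs in capitals.
Bdnf, chr2:109676151-109676180: tcttttcCGaggttCGgctcacacCGagat

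The Bdnf CpG at 109676165 in this stretch was at 0% in 7 young STD and 6 aged ENR mice and at 0, 0, 0, 31.6 and 100% in 5 aged STD mice. The difference was 26.3 ± 12.98 points for aging (SE, exact permutation p = 0.152) and −26.3 ± 13.4 points for ENR (exact permutation p = 0.182). Without aged STD mouse 8 these were 7.91 and −7.91 points.

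Another Bdnf CpG, at 109694180 on the minus strand and −229 bp, lies near the 5′ end of the Bdnf promoter printed with its measured CpGs, and was picked after its values had been seen. It was at 0% in 5 young STD and 6 aged ENR mice and at 0, 37.3, 41.0 and 42.9% in 4 aged STD mice. The difference was 30.3 ± 6.72 points for aging (SE, adjusted p = 1, limma) and −30.3 ± 6.47 points for ENR (adjusted p = 1, limma). On the plus strand of the same position, at 109694179, 3 aged STD mice were at 0, 0 and 18.8%, 3 young STD mice at 0%, and 7 aged ENR mice at 0% except for 18.9 and 19.2% in mice 5 and 8. The Bdnf CpG at 109723685, in the coding exon, was at 100% in all 15 mice with a value.

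Fgf1 (chr18:38838673-38929472), a growth factor for neurons and progenitors, was the gene with the most intermediate CpGs, since 21 of its 36 had a mean of 20 to 80%. Its promoter was at 36.2 ± 35.8, 22.4 ± 20.4 and 27.5 ± 23.6% in 6, 3 and 4 mice. Its body was at 52.2 ± 6.76% (44.2 to 61.8%, median 51.3%) for young STD, 60.7 ± 16.6% (29.7 to 85.7%, median 58.4%) for aged STD and 59.9 ± 11.9% (34.8 to 69.9%, median 64.7%) for aged ENR mice. Aged ENR minus young STD was 8.72 ± 5.83 points (SE, adjusted p = 0.934, limma), with an exact permutation p of 0.0514, and the groups overlapped. The intronic Fgf1 CpG at 38882153 was at 0 to 98.7% in 8 young STD mice, at 30.3, 44.7, 100, 100 and 100% in 5 aged STD mice and at 0, 0, 75, 86.0 and 100% in 5 aged ENR mice. Its aging difference was 44.9 ± 22.0 points (SE, exact permutation p = 0.0629). The Fgf1 CpG at 38881978, picked after its values had been seen, was at 0% in 5 young STD mice, at 50.5, 61.9 and 100% in 3 aged STD mice and at 0, 39.3, 65.8, 97.9 and 100% in 5 aged ENR mice, with an adjusted p of 1 in limma.

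Gadd45b (chr10:80930073-80932204) was low throughout, at 1.44 ± 1.68, 1.13 ± 0.811 and 1.19 ± 1.73% in the promoter and 3.87 ± 4.75, 4.03 ± 4.55 and 5.38 ± 7.88% in the body. No promoter CpG of Gadd45b differed by over 25 points in any comparison. The highest mean, 19.8%, belonged to a CpG of its 3′ untranslated region, at 80932145.

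**Figure D5:**
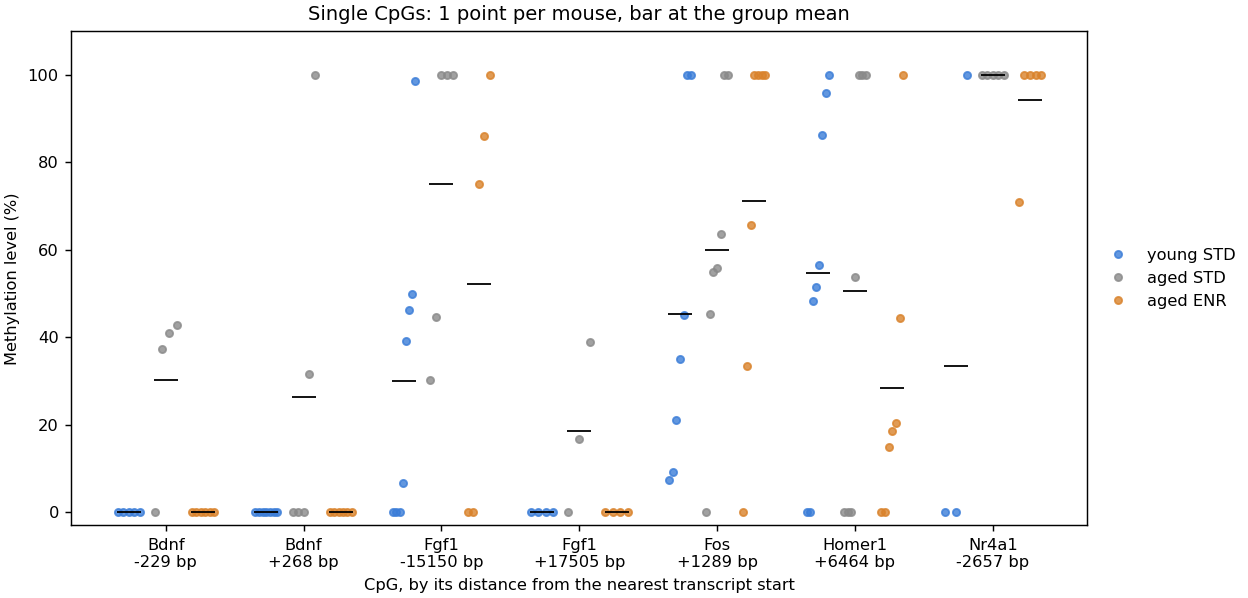
Methylation level (%) of single CpGs in each mouse, named by gene and distance from the nearest transcript start, with a bar at the group mean. At the 2 Bdnf CpGs plotted only aged STD mice lay above 0%, while at the Fos and Homer1 CpGs the groups overlapped over most of the scale.

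Counted by a difference of over 25 points between group means, 33 of the 621 CpGs (5.31%) passed for aging, against 9.15% of all CpGs. Of these, 19 were higher and 14 lower with age, against 4.15 and 5.01% of all. For ENR 27 passed (4.35%), against 8.33% of all, with 9 higher and 18 lower, against 3.82 and 4.51%. For aged ENR against young STD 29 passed (4.67%), against 8.42% of all, with 13 higher and 16 lower, against 3.43 and 4.99%. Among promoter CpGs it was 17, 11 and 8 of 451 (3.77, 2.44 and 1.77%), against 3.93, 3.42 and 3.39% of the promoter CpGs of all genes. Among body CpGs it was 16, 16 and 21 of 170 (9.41, 9.41 and 12.4%). The shares over the body CpGs of all genes were not computed. The shares of all CpGs given above are no like set for bodies, since 305044 of the 694379 CpGs were promoter CpGs. The Fgf1 body held 7 higher and 2 lower CpGs for aging, 5 and 6 for ENR, and 8 and 3 for aged ENR against young STD. Of the 167 CpGs with values in at least 5 mice of each group, 3, 1 and 3 passed, against 5.15, 4.72 and 4.82% of the 223328 CpGs of the table with such coverage. However, 127 of the 167 were promoter CpGs, of which 1, 1 and 0 passed. Among promoter CpGs of all genes with such coverage, 1947, 1668 and 1639 of 93606 passed.

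With limma on single CpGs, 0 of the 621 were called for aging, against 0.00475% of all, 0 for ENR, against 0.00432%, and 0 for aged ENR against young STD, against 0.00504%. An unadjusted limma p under 0.05 was found at 8, 5 and 7 of the 621 (1.29, 0.805 and 1.13%), and at 2.23, 1.90 and 2.18% of all CpGs.

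Single mice varied widely where levels were intermediate. At the 37 CpGs with a mean of 20 to 80%, the median SD between mice of a group was 39.3 points, and over all 114044 such CpGs 38.0 points. Both strands were measured at 76 positions. In 55 of 734 pairs of values at least 1 strand was over 50%, and in 24 of these the other strand was at exactly 0%.

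Of 30 other activity-induced genes, 50 promoters and bodies were tested, and limma called 0 in each comparison, against 0.00409, 0.00819 and 0.00819% of all. An unadjusted limma p under 0.05 was found for 5, 3 and 4 of the 50, against 5.23, 4.45 and 5.03% of all. Their median differences were 0.127, −0.335 and −0.0223 points. Of 18 upstream regulators and receptors, 17 were measured with 29 promoters and bodies. Of these limma called 0 in each comparison, with 1 at an unadjusted p under 0.05 in each, against the same shares of all. Their medians were −0.546, −1.19 and −0.808 points. Over the markers of granule neurons, oligodendrocytes, astrocytes, microglia and endothelium limma called 0 in each comparison, against the same shares of all. Of their 33 promoters and bodies, 15 were higher and 18 lower for aging, 18 and 15 for ENR, and 15 and 18 for aged ENR against young STD. At an unadjusted p under 0.05 were 4, 0 and 4, against 5.23, 4.45 and 5.03% of the promoters and bodies of all genes. For aging these were the bodies of Neurod1, Mbp, Pecam1 and Kdr, with −5.49, −8.55, −8.50 and −15.6 points, and for aged ENR against young STD the promoters of C1ql2, Dsp and Aqp4 and the Kdr body, with 2.20, 3.37, −19.5 and −17.2 points. The median difference for aging was 0.723 points for granule neuron markers, 0.192 for oligodendrocytes, 0.897 for astrocytes, −0.378 for microglia and −3.45 for endothelium. For ENR the medians were 1.10, −2.39, −1.69, −1.24 and 2.13 points in the same order, and for aged ENR against young STD 1.12, −2.35, 1.67, −2.06 and −0.974 points. The promoters of the granule neuron markers Prox1, C1ql2 and Dsp had group means between 0.274 and 3.62%. The part of cell makeup in the values of the 10 genes was not tested.

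A mouse had a value at 235 to 508 of the 621 CpGs and at 308751 to 608017 CpGs of the table. Aged STD mouse 5 had a mean deviation of −2.42 points from the CpG means over the table, against −0.878 to 1.60 in the other mice, whereas over the body CpGs of the 10 genes its −5.55 points lay next to −5.14 in young STD mouse 4. Without it limma also called 0 of the 17 promoters and bodies.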

How the data were processed

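RRBS libraries of the dentate gyrus of 24 mice (8 young STD, 8 aged STD, 8 aged ENR) were analysed. The deposited table gave, for each mouse and CpG, a percent methylation that the authors had computed from at least 10 reads, with strands separate and mice not pooled. The submitters' processing notes name Trim Galore 0.4.0, cutadapt 1.8.1, Bismark 0.16.1, methylKit 1.5.2 and mm10, and the study's methods name other versions of Trim Galore and Bismark. Read numbers per CpG were not in the table, so depth is unknown, no interval was given for a single value and the read-level test of the study could not be run.

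CpGs with values in at least 3 mice per group were assigned to protein-coding genes of GENCODE M21 (GRCm38) as promoter (within 1 kb of a start) or body (elsewhere in the span or within 2 kb). Levels are plain means over the covered CpGs of a mouse (at least 3), and tests used deviations from CpG means. limma 3.58.1 (R 4.3.3) was fitted to all 24 mice, with Benjamini-Hochberg adjustment over all CpGs (called at an adjusted p under 0.05 and over 25 points) or over all promoters and bodies (adjusted p under 0.05). Scripts were tested on simulated data. Single promoters and bodies were also compared by exact two-sided permutation tests. The members and lists were chosen with earlier results of these data known. Named CpGs were, per comparison, up to 5 with the smallest p among those with at least 5 mice per group and over 25 points, and named promoters and bodies the 3 with the smallest p, while all 10 genes were described. A CpG of Fos that the rule also names is not reported here. Leaving out single mice for the Npas4 stretch of the targeted assay and for the Homer1 CpG at 93399561 was added after the data had been seen. Same-numbered mice of different groups were separate animals by design, so numbers were not used for pairing. Over 8628 CpGs measured in all mice, the mean correlation of their deviations was −0.00387, and 0.000524 for mice of other numbers. Whether equal numbers share a batch was not tested.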

Additional observations from a re-analysis of the deposited data

Results flagged for a closer look

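In 16 of 50 groups of mice tested by Dixon's test, 1 mouse lay far from the others, where chance flags about 1 in 20 groups of normally distributed values. That rate does not hold for groups with most mice at 0%. In 3 of the 16 (Egr1 promoter in aged ENR and Junb body in young STD and aged ENR mice) every other mouse was at 0%. In promoters the mice were aged STD 8 for Bdnf (13.9%, next 5.23%), aged ENR 6 for Arc (6.33%), young STD 8, aged STD 6 and aged ENR 8 for Egr1 (1.59, 2.53 and 3.33%), young STD 1 and aged STD 6 for Npas4 (29.0 and 19.0%), aged ENR 7 for Nr4a1 (10.7%) and young STD 3 for Homer1 (4.89%). In bodies they were young STD 5 for Bdnf (32.2%), Fos (88.9%) and Junb (14.5%), aged ENR 6 for Junb (4.55%), and young STD 8, aged STD 1 and aged ENR 7 for Gadd45b (14.8, 14.6 and 23.5%). For Fos and Junb, young STD 5 had a value at only 3 body CpGs.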

How the results depend on the processing

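Of 735 alternative values, 487 of single genes or CpGs and 230 of the counts kept their direction and their side of the threshold, or stayed close. The counts of CpGs over 25 points for aging, ENR and aged ENR against young STD became 3, 1 and 3 with at least 5 mice per group, 80, 72 and 59 at 15 points and 13, 8 and 13 at 35 points, and 15 for ENR with group medians. Shares of all CpGs at 15 or 35 points or with group medians were not computed, so those counts cannot be read as high or low. Leaving out 1 mouse at a time gave 31 to 41, 25 to 35 and 21 to 38. With 1 mouse left out, limma called 0 to 1 CpGs of the 10 genes in each comparison. The Bdnf CpG at 109694180 was called without aged STD mouse 1 (40.4 points for aging and −40.4 for ENR), and the Nr4a1 CpG at 101270204 without young STD mouse 8 (100 points for aging and 94.2 for aged ENR against young STD). Mouse 8 was the only young STD mouse at 100% there, and without it 2 were left, both at 0%, fewer than the minimum of 3 mice per group used elsewhere. With the replicate number as a block, 1 CpG was called for aging and 1 for ENR, the Fgf1 CpG at 38841243, and calls over the whole table rose from 33 to 487, 30 to 421 and 35 to 401, although same-numbered mice were different animals and in 1 of 48 comparisons a mouse correlated best with its own number. The block changed no call of a promoter or body of the 10 genes. The Nr4a1 promoter reversed for aging to −1.34 points with CpGs of at least 5 mice per group, and the Junb promoter reversed to 0.00175 points for aged ENR against young STD within the gene span only. The cause was not tested. No coverage minimum could be tried, since read numbers are unknown, and that limits the precision of every single value.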

Other observations

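Among the other activity-induced genes, the body of Csrnp1, which encodes a nuclear protein induced by AXIN1, was at 61.0 ± 31.7% for young STD, 9.43 ± 16.3% for aged STD and 25.4 ± 13.3% for aged ENR mice over 6 CpGs. The difference was −51.6 ± 14.1 points for aging (SE, adjusted p = 0.767, limma) and −36.1 ± 11.3 points for aged ENR against young STD (adjusted p = 0.890, limma). The body of Klf4, a zinc finger factor, was at 10 ± 16.7, 24.5 ± 21.5 and 7.58 ± 8.64% over 12 CpGs, with differences of 13.03 ± 3.56 points for aging (SE, adjusted p = 0.667, limma) and −10.5 ± 3.31 points for ENR (adjusted p = 0.971, limma). Both were picked from the list for an unadjusted p under 0.05.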
